A study of Mus musculus with 11 samples.

Results

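The genes described here encode neural cell adhesion molecules: cadherins, protocadherins, the immunoglobulin (Ig) superfamily adhesion molecules of the Cadm, Ncam, L1 and contactin families, the contactin-associated proteins, and the synaptic adhesion pair of neurexins and neuroligins with the related Lrrtm proteins. They were found by gene symbol, which gave 94 of the 37991 gene rows in the deposited table. Of these, 69 had at least 1 CPM (a gene's reads scaled to a common library total) in at least 2 of the 11 libraries and were tested, as were 13342 genes in all. The other 25 rows were below that level, 3 of them at 0 in every library (Cdh16, Cntnap5c and a second, short row for Pcdh15). A row that pools 10 Pcdha symbols and a row that pools 9 Pcdhg symbols each counted as 1 member.

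Each library came from mouse neural stem cells of the frontal cortex, taken from C57BL/6J embryos at E14.5, expanded in NeuroCult proliferation medium and plated on flasks labelled as PDL/LMN-coated. No genetic change is named in the labels. The NSC group (3 libraries) was collected at day 0, and the 3 other groups at day 4 after a change of medium. The Astrocyte group (3 libraries) had received DMEM with 1% N-2 supplement, 1% fetal bovine serum and 2 mM GlutaMAX-1. The Neuron group (3 libraries) had received 2 mM GlutaMAX-1 and 2% B-27 supplement in Neurobasal medium. The Oligodendrocyte group (2 libraries) had received the Neuron medium with 30 ng/mL of T3, a thyroid hormone. A group name stands for the medium and not for the cells in the flask, and in any comparison with NSC the medium and the time in culture cannot be told apart. The series' design text calls the replicates biological, but the labels of the single libraries name no separate cultures or animals, so p-values measure only the spread between these samples.

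Classical cadherins bind the same cadherin on a neighbouring cell in a calcium-dependent way and are tied to actin through catenins. Clustered protocadherins are encoded in the Pcdha, Pcdhb and Pcdhg clusters, and the combination of isoforms that a neuron makes lets its branches recognise each other. Neurexins on the presynaptic side bind neuroligins and Lrrtm proteins on the postsynaptic side. In myelinated axons, contactin 1 and Cntnap1 on the axon bind neurofascin on the glial loops beside the node of Ranvier, while contactin 2 and Cntnap2 lie further along the axon, where they hold potassium channels in place.

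The listed values summed to 75% to 80.2% of a full CPM total in a library, and what else that total holds is not given in the sources used here. By an estimate from the steps between low values, 1 read was worth 0.0151 to 0.0197 CPM. Marker genes were summed by cell type. The 10 astrocyte markers summed to 14606 to 16145 CPM in Astrocyte, 9398 to 10244 CPM in Neuron, 3703 to 4162 CPM in Oligodendrocyte and 1765 to 1841 CPM in NSC. Gfap weighed most in the Astrocyte sum, at a mean of 7631 CPM against 2647 CPM in Neuron. By the test described below, 3 of the 10 were higher and 5 lower in Astrocyte than in Neuron (median log2 change -0.15). The 10 mature oligodendrocyte markers summed to 72.9 to 81.6 CPM in NSC, 446 to 574 CPM in Astrocyte, 2709 to 2921 CPM in Neuron and 2697 to 3084 CPM in Oligodendrocyte. The 11 matched neuron markers summed to 130 to 136 CPM in NSC, 227 to 282 CPM in Astrocyte, 265 to 369 CPM in Neuron and 339 to 378 CPM in Oligodendrocyte, with Stmn2, Nefm and Nefl under 1 CPM in every library. Of the 8 tested, 5 were higher and 3 lower than NSC in Astrocyte, 6 and 2 in Neuron, and 5 and 3 in Oligodendrocyte. Gap43 and Elavl4 were among the lower ones each time. In Oligodendrocyte against Neuron, 3 were higher and 4 lower, with Elavl3 at means of 178 against 90.9 CPM. The 8 cell cycle markers summed to 2945 to 2992 CPM in NSC and to 123 to 198 CPM in the day 4 groups. Endothelial markers summed to at most 7.42 CPM (Tie1 at 0 in NSC and Astrocyte), microglial markers to at most 3.16 CPM (Tmem119 at 0 in NSC and Astrocyte) and epithelial markers to at most 1.59 CPM (Krt19 at 0 in every group), while mesenchymal markers reached 83.6 to 93.7 CPM in Astrocyte, 39.7 to 46.3 CPM in Neuron and 20.7 to 21.2 CPM in Oligodendrocyte against 12.2 to 16 CPM in NSC (Lum at 0 in each day 4 group). The day 4 mesenchymal sums came mostly from Pdgfrb and Acta2. Col1a1, Col1a2, Col3a1, Lum and Dcn stayed at or below 0.52 CPM in every library. In Neuron, Pdgfrb was higher than in NSC (37.5 against 0.263 CPM), while Acta2 and Tagln were lower (log2 changes of -1.25 and -1.21). The part of these cell types in the results was not tested, and in such bulk samples fewer cells of a type and less RNA per cell cannot be told apart.

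Neuron replicate 2 had the largest median deviation from its group for the adhesion genes. It had the lowest value of its group for 60 of the 69 members (87.0%), against 49.6% of all genes tested, and its median deviation from the group mean was -0.20 log2 over the members and -0.03 log2 over all genes. Its neuron markers summed to 265.2 CPM against 368.9 and 350 CPM in the other Neuron libraries, and its oligodendrocyte precursor markers to 1684 CPM against 2243 and 2214 CPM. Libraries of the other groups were also lowest for a larger share of members than of all genes. NSC replicate 3 was lowest for 52.2% against 27.6%, Astrocyte replicate 3 for 55.1% against 38.9% and Oligodendrocyte replicate 1 for 69.6% against 40.8%. Their median deviations over the members were -0.04, -0.04 and -0.03 log2.

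Most of the tested adhesion genes were higher in the day 4 cultures than in NSC, while cadherins of several kinds were lower (all differences are on the log2(CPM + 1) scale, which understates changes of genes near or under 1 CPM). In Astrocyte against NSC, 65 of 69 members passed the test (limma, Benjamini-Hochberg adjusted p under 0.05), a share that has to be read against 83.6% of all genes tested. Of the 65, 52 were higher (48.0% of all genes) and 13 lower (35.6% of all genes), and the median change was 0.76 against 0.15 for all genes. In Neuron against NSC, 64 of 69 passed (83.1% of all genes), 54 of them higher (43.5%) and 10 lower (39.6%), with a median of 1.28 against 0.06. In Oligodendrocyte against NSC, 67 of 69 passed (80.2%), 57 higher (48.1%) and 10 lower (32.2%), with a median of 1.05 against 0.19. The split depended on the scaling. In Astrocyte against NSC the 52 higher and 13 lower members became 44 and 13 after median-of-ratios scaling and 43 and 15 after quantile normalization, and over all genes 6407 higher and 4752 lower became 5699 and 5523, and 5255 and 5658. In Neuron the members' split was 54 and 11 after either rescaling, and the 5809 higher and 5283 lower of all genes became 5633 and 5533, and 5342 and 5504. In Oligodendrocyte the members' split became 54 and 10, and 49 and 11, and the 6412 higher and 4294 lower of all genes became 5469 and 5349, and 5016 and 5504. These 3 comparisons share the NSC libraries. The filter admits a gene that is high in 1 group alone, and 57 of the 69 members reached 1 CPM in at least 2 NSC libraries, against 68 in Astrocyte, 69 in Neuron and 68 in Oligodendrocyte, so the counts describe the members and support nothing beyond that.

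Changes of at least 2-fold were found for 30 higher and 7 lower members in Astrocyte against NSC (21.4% and 12.3% of all genes), for 42 and 5 in Neuron (17.9% and 13.8%) and for 35 and 7 in Oligodendrocyte (21.2% and 10.7%). The libraries of Astrocyte and NSC did not overlap for 63 members (86.2% of all genes), those of Neuron and NSC for 65 (83.2%) and those of Oligodendrocyte and NSC for 69 (89.3%), where 2 libraries in a group make an overlap rarer.

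Among the day 4 cultures, Astrocyte differed from Neuron for 53 of 69 members (62.2% of all genes), 10 higher (40.3%) and 43 lower (22.0%). Oligodendrocyte differed from Neuron for 45 (67.5%), 19 higher (43.9%) and 26 lower (23.6%), and from Astrocyte for 47 (52.2%), 39 higher (28.7%) and 8 lower (23.5%). At least 2-fold changes were found for 1 higher and 10 lower members in Astrocyte against Neuron (6.39% and 2.95% of all genes, 9.34% in all), for 5 and 3 in Oligodendrocyte against Neuron (8.96% and 3.58%, 12.5% in all) and for 12 and 1 in Oligodendrocyte against Astrocyte (4.53% and 3.41%, 7.94% in all). The libraries did not overlap for 50 (63.0% of all genes), 49 (75.7%) and 53 (71.7%) members in these 3 comparisons. The medians were -0.41, -0.09 and 0.36, against 0.10, 0.15 and 0.04 for all genes. The split between Oligodendrocyte and Neuron moved to 16 higher and 35 lower members after median-of-ratios scaling and to 17 and 38 after quantile normalization, with medians of -0.24 and -0.25. For all genes the same rescalings gave 4543 higher and 4276 lower, and 4255 higher and 4603 lower, in place of 5859 and 3147; for Astrocyte against Neuron they gave 4304 and 3982, and 4055 and 4309, in place of 5371 and 2930. Without Neuron replicate 2 the 3 counts that involve Neuron were 68 against NSC, 57 for Astrocyte (7 higher, 50 lower) and 51 for Oligodendrocyte (18 higher, 33 lower). The counts of all genes in that fit are not given here, so these shifts cannot be read as particular to the members.

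The group with the highest mean was Neuron for 34 members (49.3%, against 18.2% of all genes tested), Oligodendrocyte for 22 (31.9% against 26.3%), NSC for 9 (13% against 33.7%) and Astrocyte for 4 (5.8% against 21.7%). The 9 members highest in NSC were Cdh4, Cdh13, Cdh20, Cdh22, Cdh24, Pcdh18, Pcdh19, Chl1 and Lrrtm3, and the 4 highest in Astrocyte were Cntnap1, Nrxn3, Pcdh8 and Pcdh10.

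**Figure D1:**
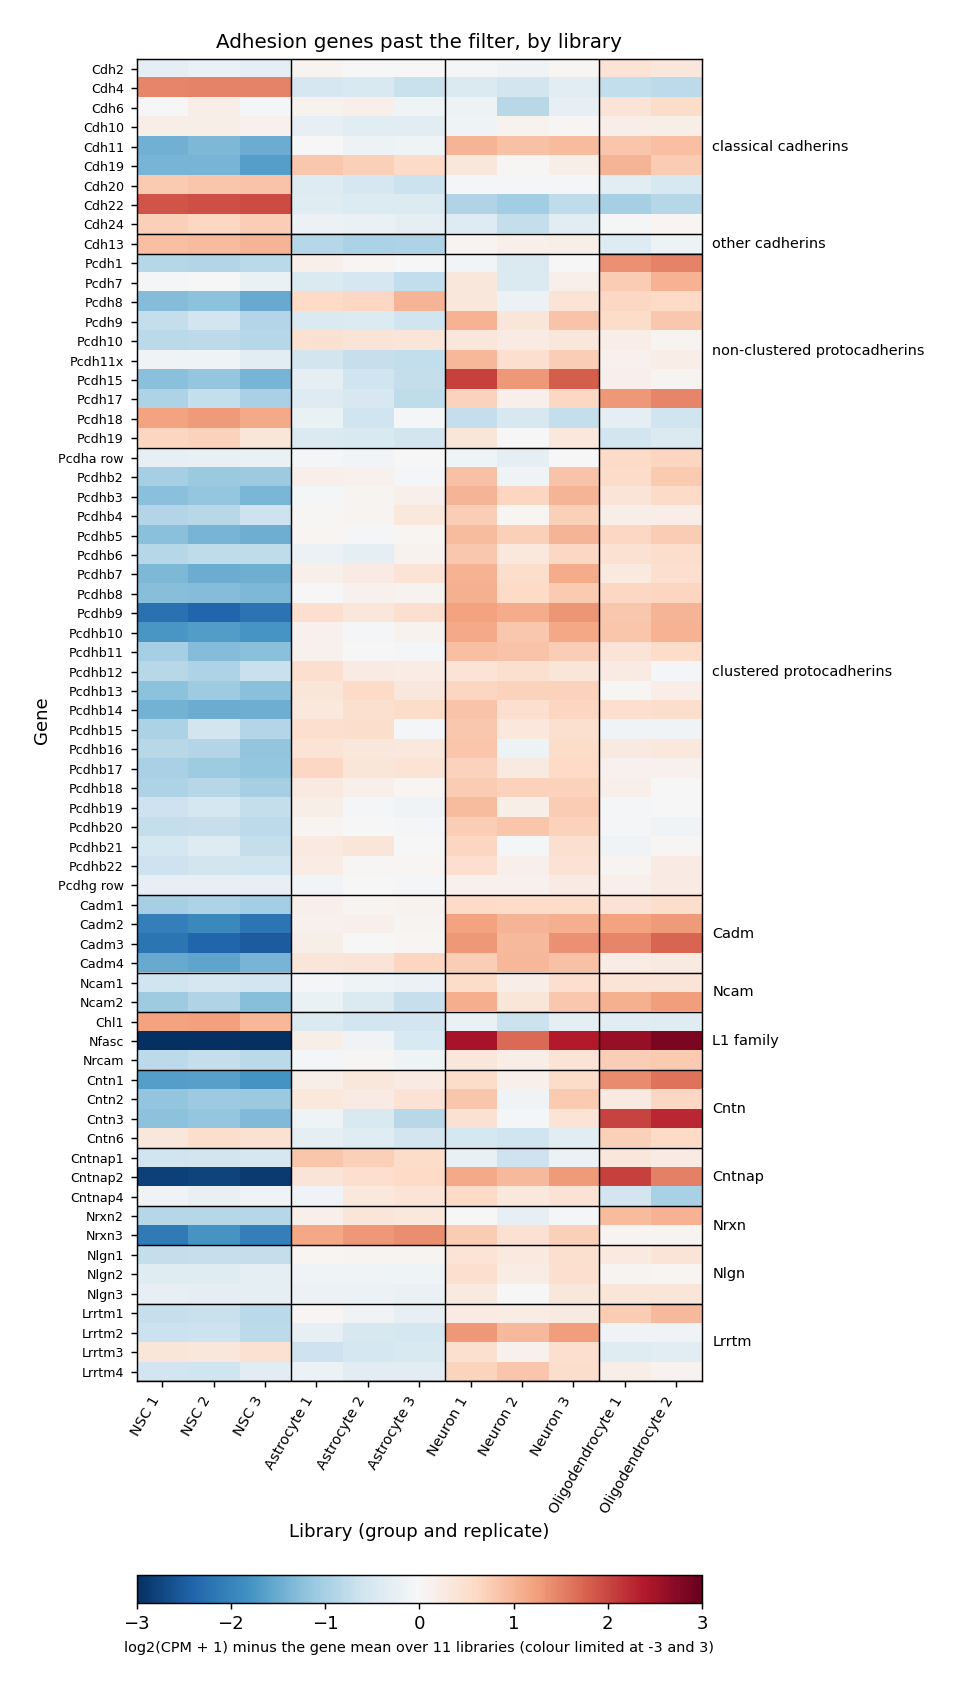
Each row is 1 of 68 tested adhesion genes and each column 1 of the 11 libraries; colour gives log2(CPM + 1) minus the gene's mean over the 11 libraries, limited at -3 and 3 on that scale, and lines separate groups and families. The Pcdhb rows are blue in the 3 NSC columns and paler or red in the day 4 columns, Cdh4 and Cdh22 show the opposite, and the column of Neuron replicate 2 is paler than those of the other Neuron libraries in most rows.

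Upstream sequence is shown for the genes with the largest rise and fall against NSC (Nfasc and Cdh22) and the largest rise and fall of Oligodendrocyte against Neuron (Cntn3 and Pcdh15), taken among those members for which a promoter could be shown. The sequences are from RefSeq on GRCm38.p6, not the mm9 build of the deposited table, and give the 250 bases before the outermost annotated start, 5′ to 3′ on the gene's own strand, with CG dinucleotides, the sites of DNA methylation, in capitals. Nfasc lies at chr1:132707327-132707576 (minus strand), Cdh22 at chr2:165234738-165234987 (minus), Cntn3 at chr6:102464668-102464917 (minus) and Pcdh15 at chr10:73821617-73821866 (plus). Which start the cells used was not measured.
Nfasc: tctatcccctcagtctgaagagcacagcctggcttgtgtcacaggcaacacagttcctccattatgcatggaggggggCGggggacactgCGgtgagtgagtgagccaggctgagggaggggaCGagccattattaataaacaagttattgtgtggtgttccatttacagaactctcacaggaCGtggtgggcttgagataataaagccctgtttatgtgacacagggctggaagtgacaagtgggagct
Cdh22: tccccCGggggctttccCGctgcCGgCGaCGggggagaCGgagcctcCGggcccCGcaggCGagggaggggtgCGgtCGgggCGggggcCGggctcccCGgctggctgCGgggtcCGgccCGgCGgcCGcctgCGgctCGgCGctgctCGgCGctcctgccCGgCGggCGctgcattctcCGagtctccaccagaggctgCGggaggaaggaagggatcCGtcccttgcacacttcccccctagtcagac
Cntn3: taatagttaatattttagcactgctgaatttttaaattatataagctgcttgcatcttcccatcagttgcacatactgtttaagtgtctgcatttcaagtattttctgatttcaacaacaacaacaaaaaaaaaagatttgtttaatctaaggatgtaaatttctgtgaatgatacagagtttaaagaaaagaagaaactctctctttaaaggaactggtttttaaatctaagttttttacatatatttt
Pcdh15: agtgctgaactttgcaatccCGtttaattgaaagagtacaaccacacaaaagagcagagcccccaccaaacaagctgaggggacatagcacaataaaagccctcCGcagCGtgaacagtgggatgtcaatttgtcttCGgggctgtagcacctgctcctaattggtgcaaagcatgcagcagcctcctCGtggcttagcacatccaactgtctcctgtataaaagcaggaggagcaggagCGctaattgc

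The Cdh22 window was 77.6% G and C and held 30 CG dinucleotides. The Nfasc and Pcdh15 windows were at 52% and 50.4% with 4 and 6, and the Cntn3 window was at 26.4% with none. The 31 members that matched the table had 40 windows (some have several starts), with a median of 8.5 CG dinucleotides in the 250 bases before the start (0 to 32), against a median of 6 (0 to 56) in all 32851 windows. Motifs were searched on both strands in the 300-base windows that also hold 50 bases after the start; none of the 3 motifs used lies within another. AGGTCA, the half-site of nuclear receptors such as the T3 receptor, occurred in 1 member window (2.5%), at a Nfasc start, against 16.3% of all windows. That window belongs to the Nfasc start whose sequence is not printed above. CAGCTG, an E-box, occurred in 6 member windows (15% against 16.3%) and ACAAAG, the core bound by SOX factors, in 6 (15% against 18.7%). A match is a run of letters and not a binding site, and its absence says only that the letters are not in that window.

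Among the classical cadherins, 9 of 18 were tested: the type I cadherins Cdh2 and Cdh4 and the type II or related Cdh6, Cdh10, Cdh11, Cdh19, Cdh20, Cdh22 and Cdh24. Against NSC, 3 of the 9 were higher and 5 lower in Astrocyte (48.0% and 35.6% of all genes), 3 and 5 in Neuron (43.5% and 39.6%), and 4 and 4 in Oligodendrocyte (48.1% and 32.2%). Cdh4 (R-cadherin; mm9 chromosome 2, 179177136 to 179634078, plus strand) measured 268, 274 and 275 CPM in NSC, 68.4, 70.1 and 61.1 in Astrocyte, 72.1, 65.7 and 78.3 in Neuron and 58.0 and 55.8 in Oligodendrocyte. The NSC values were the highest in every case and did not overlap with those of any day 4 group. The change was -2.02 ± 0.071 (SE, adjusted p = 6.85e-12) in Astrocyte, -1.91 ± 0.071 (SE, adjusted p = 1.39e-11) in Neuron and -2.24 ± 0.079 (SE, adjusted p = 1.14e-11) in Oligodendrocyte. Cdh22, a type II cadherin also called PB-cadherin (mm9 chromosome 2, 164937007 to 165060353, minus strand), measured 29.4, 30.4 and 30.8 CPM in NSC, 5.34, 5.14 and 5.13 in Astrocyte, 3.37, 2.95 and 3.86 in Neuron and 3.08 and 3.53 in Oligodendrocyte. It was lower in each day 4 group, at -2.33 ± 0.087 (SE, adjusted p = 1.24e-11), -2.83 ± 0.087 (SE, adjusted p = 2.03e-12) and -2.86 ± 0.097 (SE, adjusted p = 7.36e-12) in Astrocyte, Neuron and Oligodendrocyte, and the Astrocyte values lay above both other day 4 groups (0.50 ± 0.087 against Neuron, SE, adjusted p = 0.000209). Cdh20 (-1.33, -0.87 and -1.23) and Cdh24 (-0.91, -1.17 and -0.69) were also lower in the 3 day 4 groups.

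Cdh11 and Cdh19 were higher in each day 4 group than in NSC, with libraries that did not overlap. Cdh11 (OB-cadherin) measured 14.9, 15.8 and 14.3 CPM in NSC, 41.5, 37.6 and 38.4 in Astrocyte, 85.9, 77.7 and 82.4 in Neuron and 76.0 and 79.9 in Oligodendrocyte. The Neuron and Oligodendrocyte values overlapped (difference -0.07 ± 0.072, SE, adjusted p = 0.397), and Astrocyte lay between them and NSC, at -1.05 ± 0.065 (SE, adjusted p = 1.77e-08) against Neuron. Cdh19, a cadherin known from glia of the peripheral nerve lineage, measured 7.80, 7.88 and 6.45 CPM in NSC, 40.1, 37.4 and 33.5 in Astrocyte, 28.7, 22.9 and 25.5 in Neuron and 46.2 and 38.2 in Oligodendrocyte. Here the Neuron values were the lowest of the day 4 groups, and Oligodendrocyte was above Neuron by 0.69 ± 0.12 (SE, adjusted p = 0.000173) while it overlapped with Astrocyte. Cdh2 (N-cadherin), the main classical cadherin of the neural epithelium, measured 217, 233 and 219 CPM in NSC, 283, 267 and 262 in Astrocyte, 261, 248 and 278 in Neuron and 353 and 339 in Oligodendrocyte. Its changes were small, at 0.28, 0.23 and 0.63 against NSC, of which the first was 0.12 (adjusted p = 0.0543) after median-of-ratios scaling, and its Oligodendrocyte values lay above every other library (0.40 ± 0.069 against Neuron, SE, adjusted p = 0.000192). Cdh6 and Cdh10 ranged from 2.91 to 9.28 CPM and from 16.9 to 24.8 CPM over the 11 libraries. Cdh6 was at -0.47 in Neuron and 0.41 in Oligodendrocyte against NSC, but the Oligodendrocyte call was lost under 10 of the 20 other settings tried (each library left out in turn included) and the Neuron value was -0.26 without Neuron replicate 2 and lost its call without NSC replicate 2. Cdh10 was lower in Astrocyte than in NSC (-0.46 ± 0.068, SE, adjusted p = 2.47e-05), and its changes in Neuron (-0.14) and Oligodendrocyte (0.03) did not pass the test.

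The other 9 classical cadherins did not reach the filter. Cdh1 (E-cadherin), the epithelial cadherin, was at 0 in the 3 NSC libraries, 0.05, 0.14 and 0.03 CPM in Astrocyte, 0.61, 0.17 and 0.39 CPM in Neuron and 0.03 and 0.05 CPM in Oligodendrocyte, and was not tested. Cdh5, the endothelial cadherin, had 0.02 CPM in 1 NSC library and was at 0 elsewhere. Cdh15 was just outside the filter, with 0.92 and 1.17 CPM in Oligodendrocyte and at most 0.46 CPM elsewhere. Cdh3, Cdh7, Cdh8, Cdh9, Cdh12 and Cdh18 stayed at or below 0.24 CPM. Of 5 other cadherins only Cdh13 (T-cadherin), which has a lipid anchor in place of a cytoplasmic tail, was tested. It measured 73.8, 77.0 and 80.1 CPM in NSC, 21.4, 19.7 and 20.3 in Astrocyte, 41.6, 43.3 and 44.5 in Neuron and 29.6 and 35.1 in Oligodendrocyte. It was lower in each day 4 group, at -1.86 ± 0.070 (SE, adjusted p = 1.45e-11), -0.82 ± 0.070 (SE, adjusted p = 9.35e-08) and -1.23 ± 0.078 (SE, adjusted p = 4.89e-09) in Astrocyte, Neuron and Oligodendrocyte, and no libraries of any of the 4 groups overlapped. Cdh16, Cdh17, Cdh23 and Cdh26 stayed at or below 0.72 CPM.

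**Figure D2:**
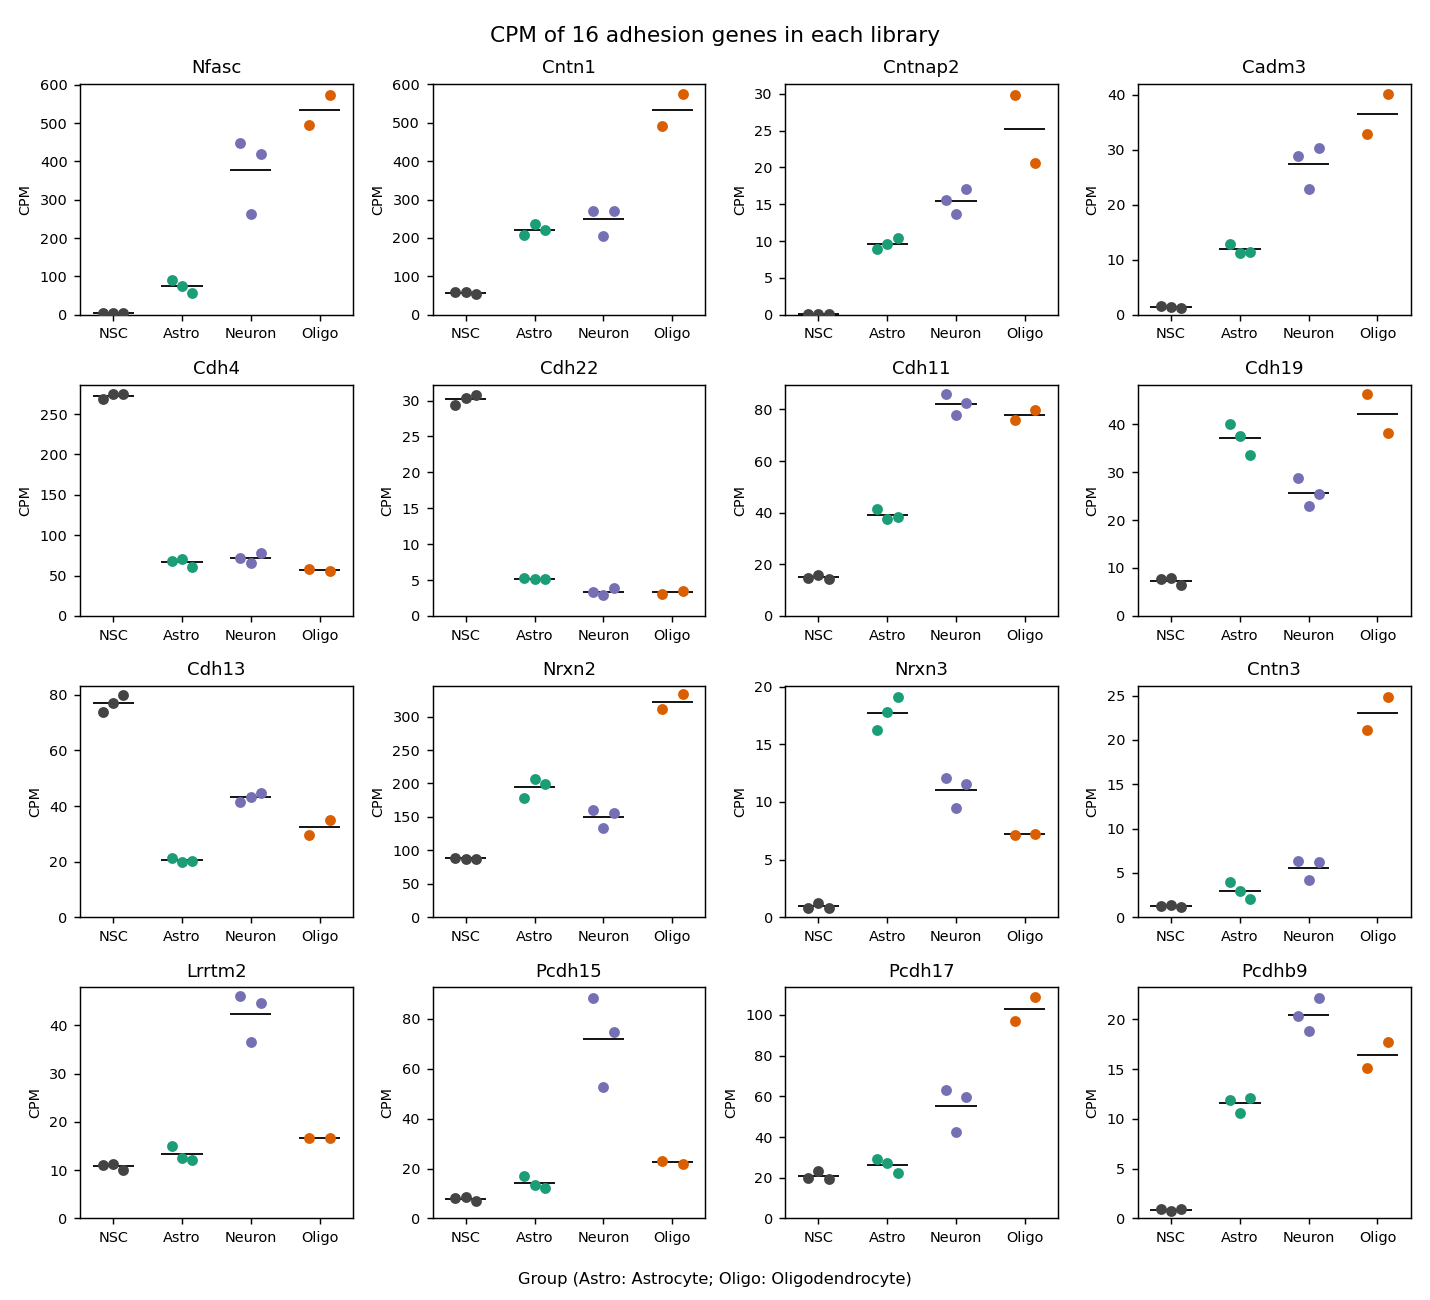
CPM of 16 adhesion genes on a linear axis that starts at 0; each point is 1 library and each line the mean of its group (3 libraries for NSC, Astrocyte and Neuron, 2 for Oligodendrocyte). Nfasc, Cntn1 and Cntn3 are highest in both Oligodendrocyte libraries, Cdh4 and Cdh22 in the 3 NSC libraries, Pcdh15 and Lrrtm2 in the 3 Neuron libraries and Nrxn3 in the 3 Astrocyte libraries.

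The Pcdhb genes, single-exon clustered protocadherins, were higher in each day 4 culture than in NSC. They lie in 1 tandem cluster on the plus strand of chromosome 18 in mm9, the tested ones from Pcdhb2 (start 37454494) to Pcdhb22 (end 37681073), and 21 of 22 were tested (Pcdhb1 was at most 0.06 CPM). Summed over the 21 tested genes they came to 77.58, 78.59 and 71.47 CPM in NSC, 206.4, 192.9 and 191 CPM in Astrocyte, 322, 249.3 and 302.1 CPM in Neuron, and 210 and 221.5 CPM in Oligodendrocyte. The NSC sums were the lowest and the Neuron sums the highest, with no overlap between Neuron and any other group. Of the 21 genes, 21 were higher in Astrocyte (48.0% of all genes), 21 in Neuron (43.5%) and 21 in Oligodendrocyte (48.1%) than in NSC, with medians of 1.22, 1.61 and 1.29; after quantile normalization the counts were 19, 21 and 17, with none lower. At least 1 CPM was reached by 14 or 15 Pcdhb genes in an NSC library and by 21 in every day 4 library.

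Pcdhb9 changed the most of the Pcdhb genes. It measured 0.93, 0.75 and 0.99 CPM in NSC, 11.9, 10.6 and 12.1 in Astrocyte, 20.3, 18.8 and 22.1 in Neuron and 15.1 and 17.7 in Oligodendrocyte, and rose by 2.73 ± 0.093 (SE, adjusted p = 5.2e-12), 3.50 ± 0.093 (SE, adjusted p = 4.91e-13) and 3.2 ± 0.10 (SE, adjusted p = 5.02e-12) in Astrocyte, Neuron and Oligodendrocyte. No 2 groups overlapped for it, and its order was NSC, Astrocyte, Oligodendrocyte, Neuron; the step from Oligodendrocyte to Neuron (-0.30 ± 0.10, SE, adjusted p = 0.0212) was -0.19 (adjusted p = 0.218) without Oligodendrocyte replicate 1. Pcdhb10 measured 1.52, 1.67 and 1.48 CPM in NSC, 8.37, 7.35 and 8.17 in Astrocyte, 17.9, 13.8 and 18.2 in Neuron and 14.2 and 16.5 in Oligodendrocyte, and its change against NSC was 1.81 ± 0.10 (SE, adjusted p = 1.36e-09), 2.78 ± 0.10 (SE, adjusted p = 1.62e-11) and 2.67 ± 0.12 (SE, adjusted p = 9.6e-11) in the same order. Its Neuron and Oligodendrocyte values overlapped. Pcdhb7 measured 0.96, 0.80 and 0.83 CPM in NSC, 4.55, 4.94 and 5.69 in Astrocyte, 9.40, 6.29 and 9.85 in Neuron and 5.20 and 6.14 in Oligodendrocyte, with changes of 1.70 ± 0.14 (SE, adjusted p = 4.42e-08), 2.33 ± 0.14 (SE, adjusted p = 1.58e-09) and 1.84 ± 0.15 (SE, adjusted p = 7.8e-08). The smallest changes were those of Pcdhb19 in Astrocyte (0.63), Pcdhb21 in Neuron (0.90) and Pcdhb21 in Oligodendrocyte (0.50), the last of which was 0.33 (adjusted p = 0.101) after median-of-ratios scaling and 0.10 (adjusted p = 0.617) after quantile normalization.

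Along the cluster, the genes on the 5′ side tended to have lower NSC levels and larger changes than those on the 3′ side. Spearman's rho of position order with the change was -0.34 in Astrocyte, -0.52 in Neuron and -0.65 in Oligodendrocyte over the 21 genes, and rho of the order with the NSC mean was 0.67. These are descriptions: the genes share libraries, lie in 1 cluster and are close in sequence, so reads could be split between neighbours, and the log2(CPM + 1) scale moves with the level. Between the day 4 cultures, 14 of 21 Pcdhb genes were lower in Astrocyte than in Neuron (22.0% of all genes; median -0.55) and none higher (40.3%). In Oligodendrocyte 11 of 21 were lower than in Neuron (23.6% of all genes, median -0.33) and none higher (43.9%). The count of lower genes was 17 after median-of-ratios scaling, 19 after quantile normalization and 16 without Neuron replicate 2. For the fit without that library the share of all genes is not given here. The largest such differences were those of Pcdhb10 in Astrocyte (-0.97 ± 0.10, SE, adjusted p = 3.26e-06) and Pcdhb20 in Oligodendrocyte (-0.83 ± 0.077, SE, adjusted p = 7.25e-07). Oligodendrocyte was above Astrocyte for 8 Pcdhb genes (28.7% of all genes) and below it for 2 (23.5%).

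**Figure D3:**
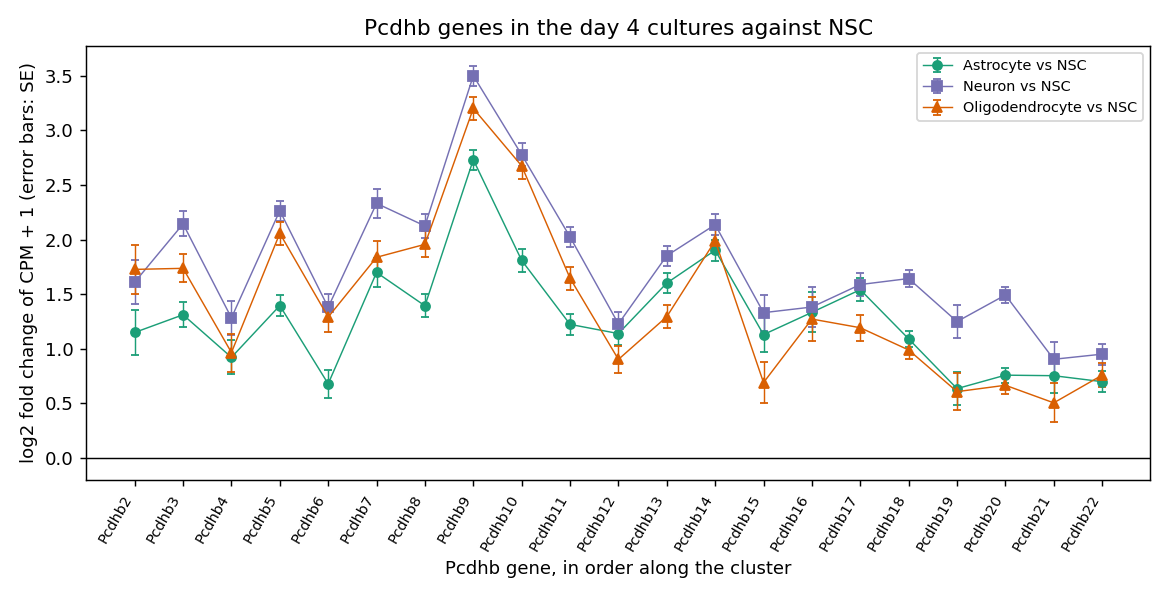
Log2 fold change of CPM + 1 against NSC (points, with the SE as bars) for the 21 tested Pcdhb genes in their order along the cluster, in Astrocyte, Neuron and Oligodendrocyte; lines join the points of 1 comparison for the eye. Each point lies above 0, and Pcdhb9 is the highest in each comparison (2.73, 3.50 and 3.2). The genes from Pcdhb19 on are among the lowest, except Pcdhb20 in Neuron (1.49).

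The pooled Pcdha and Pcdhg rows changed by at most 0.83 on the log2 scale against NSC. The Pcdha row measured 28.7, 29.0 and 29.8 CPM in NSC, 33.3, 32.5 and 34.0 in Astrocyte, 31.4, 28.1 and 33.9 in Neuron and 51.8 and 53.7 in Oligodendrocyte, with both Oligodendrocyte values above every other library. Its change against NSC was 0.83 ± 0.076 (SE, adjusted p = 2.25e-07) in Oligodendrocyte, 0.18 ± 0.068 (SE, adjusted p = 0.0234) in Astrocyte and 0.09 ± 0.068 (SE, adjusted p = 0.25) in Neuron, of which the last did not pass. The Astrocyte change was 0.03 (adjusted p = 0.652) after median-of-ratios scaling. The Pcdhg row measured 889, 886 and 889.9 CPM in NSC, 997, 1055 and 1009 in Astrocyte, 1152, 1149 and 1250.2 in Neuron and 1181 and 1249 in Oligodendrocyte. It changed by 0.20 ± 0.066 (SE, adjusted p = 0.0128), 0.41 ± 0.066 (SE, adjusted p = 5.46e-05) and 0.45 ± 0.074 (SE, adjusted p = 7.26e-05), and its Neuron and Oligodendrocyte values overlapped. Its Astrocyte change was 0.04 (adjusted p = 0.605) after median-of-ratios scaling. Since a row pools many isoforms that share exons, a change of isoform within it would not be seen. Pcdha3, which had a row of its own, stayed at or below 0.53 CPM.

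Of 13 rows of non-clustered protocadherins, which act mostly as weak homophilic adhesion and signalling proteins in the developing brain, 10 were tested. Against NSC, 5 of the 10 were higher and 4 lower in Astrocyte (48.0% and 35.6% of all genes), 7 and 2 in Neuron (43.5% and 39.6%), and 8 and 2 in Oligodendrocyte (48.1% and 32.2%). Pcdh15, best known as a part of the tip link of inner ear hair cells (mm9 chromosome 10, 72562090 to 74112475, plus strand), measured 8.02, 8.70 and 7.16 CPM in NSC, 16.9, 13.2 and 12.2 in Astrocyte, 88.5, 52.5 and 74.5 in Neuron and 23.1 and 21.8 in Oligodendrocyte. The Neuron values were the highest, and no groups overlapped. Neuron was above NSC by 2.99 ± 0.16 (SE, adjusted p = 5.75e-10), while Astrocyte was at -2.25 ± 0.16 (SE, adjusted p = 5.81e-08) and Oligodendrocyte at -1.60 ± 0.18 (SE, adjusted p = 3.58e-06) against Neuron. The oligodendrocyte precursor markers, 8 genes with Pdgfra and Cspg4 among them, were highest in Neuron too among the day 4 groups, with sums of 1684 to 2243 CPM against 758 to 844 CPM in Astrocyte and 1359 to 1484 CPM in Oligodendrocyte. In NSC, where Pcdh15 was lowest, they summed to 1880 to 2020 CPM, within the range of Neuron. Most of that NSC sum was Olig1 and Olig2, at means of 1019 and 733 CPM. Gene by gene, 4 of the 8 were higher in Neuron than in NSC and 4, Olig1 and Olig2 among them, were lower. Among the higher ones, Pdgfra rose from a mean of 21.2 to 211 CPM, Sox10 from 2.71 to 135 CPM and Gpr17 from 6.45 to 863 CPM. Their part in the Pcdh15 values was not tested.

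Pcdh1 and Pcdh17 were highest in Oligodendrocyte. Pcdh1 measured 13.8, 13.6 and 14.2 CPM in NSC, 28.6, 26.6 and 25.8 in Astrocyte, 24.4, 18.8 and 25.4 in Neuron and 68.0 and 74.1 in Oligodendrocyte. Oligodendrocyte was above NSC by 2.28 ± 0.11 (SE, adjusted p = 2.07e-10), above Neuron by 1.60 ± 0.11 (SE, adjusted p = 3.15e-08) and above Astrocyte by 1.36 ± 0.11 (SE, adjusted p = 2.67e-07), with no overlap. Astrocyte was above Neuron by 0.24 ± 0.096 (SE, adjusted p = 0.0436), a difference of 0.11 (adjusted p = 0.169) without Neuron replicate 2 and a call lost under 15 of the 20 other settings. Pcdh17, a protocadherin of synapses in the basal ganglia, measured 19.9, 23.1 and 19.3 CPM in NSC, 29.2, 27.3 and 22.4 in Astrocyte, 62.9, 42.6 and 59.6 in Neuron and 96.9 and 109 in Oligodendrocyte. It was above NSC by 2.26 ± 0.15 (SE, adjusted p = 7.67e-09) in Oligodendrocyte and 1.35 ± 0.13 (SE, adjusted p = 4.78e-07) in Neuron, whereas NSC and Astrocyte overlapped (0.32 ± 0.13, SE, adjusted p = 0.0395), and that call was lost under 9 of the 20 other settings. Oligodendrocyte exceeded Astrocyte by 1.94 ± 0.15 (SE, adjusted p = 2.31e-07) and Neuron by 0.91 ± 0.15 (SE, adjusted p = 0.000133).

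Pcdh8 rose and Pcdh18 fell in each day 4 group. Pcdh8 (arcadlin), which is induced by neuronal activity, measured 0.56, 0.63 and 0.35 CPM in NSC, 4.82, 4.94 and 6.77 in Astrocyte, 3.86, 2.38 and 4.09 in Neuron and 4.86 and 4.84 in Oligodendrocyte and rose by 2.10 ± 0.15 (SE, adjusted p = 1.65e-08), 1.54 ± 0.15 (SE, adjusted p = 4.79e-07) and 1.96 ± 0.17 (SE, adjusted p = 1.41e-07). Its Oligodendrocyte and Neuron values differed by 0.42 ± 0.17 (SE, adjusted p = 0.0437), and by 0.23 (adjusted p = 0.134) without Neuron replicate 2, with the call lost under 11 of the 20 other settings. Pcdh18 measured 6.67, 7.09 and 6.30 CPM in NSC, 1.92, 1.19 and 2.25 in Astrocyte, 1.03, 1.37 and 1.04 in Neuron and 1.73 and 1.20 in Oligodendrocyte. It came to at most 2.25 CPM in the day 4 libraries, a change of -1.48 ± 0.14 (SE, adjusted p = 2.04e-07), -1.84 ± 0.14 (SE, adjusted p = 2.09e-08) and -1.65 ± 0.15 (SE, adjusted p = 2.59e-07), with no overlap with NSC. Pcdh10 rose in the 3 day 4 groups (1.23, 1.13 and 0.96) and Pcdh19, a gene linked to epilepsy, fell (-1.05, -0.34 and -1.07). Pcdh9 rose in Neuron (1.48) and Oligodendrocyte (1.40), and its Astrocyte change of 0.24 did not pass. Pcdh12 was at 0.02 CPM in 2 libraries and at 0 in the others, and Pcdh20 reached 0.77 CPM at most.

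Pcdh7 and Pcdh11x changed in opposite directions in different media. Pcdh11x measured 24.5, 24.0 and 20.5 CPM in NSC, 17.6, 15.9 and 15.4 in Astrocyte, 53.6, 37.5 and 44.4 in Neuron and 28.8 and 30.5 in Oligodendrocyte. It was lower than NSC in Astrocyte (-0.47 ± 0.11, SE, adjusted p = 0.00142) and higher in Neuron (0.93 ± 0.11, SE, adjusted p = 2.98e-06) and Oligodendrocyte (0.36 ± 0.12, SE, adjusted p = 0.0177), and the groups did not overlap. The Oligodendrocyte value was 0.16 (adjusted p = 0.227) after median-of-ratios scaling, and its call was also lost after quantile normalization, without NSC replicate 3 and without Oligodendrocyte replicate 2. Pcdh7 measured 36.2, 37.4 and 31.9 CPM in NSC, 27.2, 25.9 and 21.8 in Astrocyte, 47.4, 27.3 and 41.1 in Neuron and 63.8 and 77.9 in Oligodendrocyte. It was lower than NSC in Astrocyte (-0.48 ± 0.16, SE, adjusted p = 0.0125) and higher in Oligodendrocyte (0.99 ± 0.18, SE, adjusted p = 0.000173), while its Neuron libraries overlapped with those of NSC (0.10 ± 0.16, SE, adjusted p = 0.571). The Astrocyte value was -0.39 (adjusted p = 0.0558) without Astrocyte replicate 3.

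The 4 Cadm genes (SynCAM or nectin-like proteins), Ig adhesion molecules of synapses and of the contact between axon and glia, were at least 2-fold higher than NSC in each day 4 group, with libraries that did not overlap. Cadm3, the axonal partner of Cadm4, measured 1.65, 1.36 and 1.16 CPM in NSC, 12.9, 11.3 and 11.4 in Astrocyte, 28.9, 22.9 and 30.4 in Neuron and 32.8 and 40.1 in Oligodendrocyte. Its changes were 2.43 ± 0.12 (SE, adjusted p = 1.95e-10), 3.57 ± 0.12 (SE, adjusted p = 4.23e-12) and 3.97 ± 0.13 (SE, adjusted p = 5.91e-12) in Astrocyte, Neuron and Oligodendrocyte. Oligodendrocyte was above Neuron by 0.40 ± 0.13 (SE, adjusted p = 0.0152), which was 0.26 (adjusted p = 0.185) without Oligodendrocyte replicate 2 and 0.25 (adjusted p = 0.092) after median-of-ratios scaling. Cadm2 measured 29.1, 31.4 and 26.1 CPM in NSC, 133, 138 and 130.5 in Astrocyte, 283, 251 and 262 in Neuron and 286 and 299 in Oligodendrocyte. It rose by 2.18 ± 0.070 (SE, adjusted p = 2.81e-12), 3.16 ± 0.070 (SE, adjusted p = 1.06e-13) and 3.30 ± 0.078 (SE, adjusted p = 3.38e-13), and Astrocyte was the lowest day 4 group. Cadm4, the partner on the glial side in peripheral myelin, measured 75.8, 72.5 and 83.4 CPM in NSC, 281, 288 and 343 in Astrocyte, 368, 437 and 402 in Neuron and 258 and 263 in Oligodendrocyte. Its Neuron values were the highest, 2.36 ± 0.086 (SE, adjusted p = 1.17e-11) above NSC, and Oligodendrocyte was at -0.62 ± 0.097 (SE, adjusted p = 7.86e-05) against Neuron. Cadm1 rose from 56.4 to 60.3 CPM in NSC to 169.5 to 173 CPM in Neuron (1.54 ± 0.053, SE, adjusted p = 5.9e-12). Astrocyte was below Neuron for each of the 4 genes, from -1.13 for Cadm3 to -0.41 for Cadm4.

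Ncam1 and Ncam2, homophilic Ig adhesion molecules of which Ncam1 carries polysialic acid in the developing brain, were higher in each day 4 group than in NSC. Ncam1 measured 149.6, 158 and 152 CPM in NSC, 215, 206 and 200.3 in Astrocyte, 329, 259 and 321 in Neuron and 298 and 297 in Oligodendrocyte. Its change was 0.43 ± 0.080 (SE, adjusted p = 0.00018) in Astrocyte, 0.97 ± 0.080 (SE, adjusted p = 5.84e-08) in Neuron and 0.95 ± 0.089 (SE, adjusted p = 2.67e-07) in Oligodendrocyte. Ncam2 measured 17.4, 19.7 and 14.9 CPM in NSC, 32.3, 27.3 and 22.6 in Astrocyte, 80.9, 48.3 and 66.7 in Neuron and 79.4 and 90.3 in Oligodendrocyte, with changes of 0.63 ± 0.17 (SE, adjusted p = 0.00315), 1.83 ± 0.17 (SE, adjusted p = 1.7e-07) and 2.23 ± 0.18 (SE, adjusted p = 8e-08). For both genes Neuron and Oligodendrocyte overlapped, and Astrocyte lay between NSC and those groups.

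In the L1 family, Nfasc had the largest change of the tested adhesion genes in each comparison with NSC on the log2(CPM + 1) scale. Cntnap2 rose from a mean of 0.063 CPM in NSC, a level at which that scale understates a change. The Cntnap2 means were 9.64, 15.5 and 25.2 CPM in Astrocyte, Neuron and Oligodendrocyte. Nfasc (neurofascin; mm9 chromosome 1, 134461268 to 134638374, minus strand) has a neuronal form at nodes of Ranvier and a glial form beside them, which the table does not separate. It measured 4.44, 4.65 and 4.48 CPM in NSC, 90.4, 74.2 and 57.5 in Astrocyte, 448, 263 and 418 in Neuron and 496 and 575 in Oligodendrocyte. The NSC values were at most 4.65 CPM, and the day 4 values were at least 57.5 CPM. The change was 3.74 ± 0.18 (SE, adjusted p = 1.75e-10) in Astrocyte, 6.06 ± 0.18 (SE, adjusted p = 1.41e-12) in Neuron and 6.60 ± 0.20 (SE, adjusted p = 2.58e-12) in Oligodendrocyte. Astrocyte was at -2.32 ± 0.18 (SE, adjusted p = 1.31e-07) against Neuron, and Oligodendrocyte was at 0.54 ± 0.20 (SE, adjusted p = 0.0287), which became 0.30 (adjusted p = 0.0544) without Neuron replicate 2 and lost its call under 7 of the 20 other settings. The mature oligodendrocyte markers were low in NSC, intermediate in Astrocyte and similar in Neuron and Oligodendrocyte, as given above; their part in the Nfasc values was not tested.

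Nrcam, which joins Nfasc at nodes, and Chl1, the close homologue of L1, went opposite ways. Nrcam measured 62.8, 66.0 and 62.7 CPM in NSC, 105, 112 and 99.8 in Astrocyte, 139.6, 125 and 146 in Neuron and 185 and 191 in Oligodendrocyte, with no overlap between groups, and changed by 0.72 ± 0.067 (SE, adjusted p = 2.21e-07), 1.09 ± 0.067 (SE, adjusted p = 2.73e-09) and 1.54 ± 0.075 (SE, adjusted p = 2.67e-10). Chl1 measured 73.9, 75.2 and 63.8 CPM in NSC, 23.2, 20.8 and 21.0 in Astrocyte, 27.6, 19.8 and 25.8 in Neuron and 24.8 and 24.4 in Oligodendrocyte. Its day 4 levels were lower, at -1.67 ± 0.11 (SE, adjusted p = 3.83e-09), -1.51 ± 0.11 (SE, adjusted p = 1.15e-08) and -1.49 ± 0.12 (SE, adjusted p = 5.34e-08) against NSC. Neither other day 4 group differed from Neuron past the threshold, with -0.15 ± 0.11 (SE, adjusted p = 0.229) for Astrocyte and 0.03 ± 0.12 (SE, adjusted p = 0.859) for Oligodendrocyte against Neuron. L1cam itself was at 0.15, 0.33 and 0.10 CPM in NSC, 0.79, 0.74 and 0.93 CPM in Astrocyte, 0.79, 0.41 and 0.63 CPM in Neuron and 0.65 and 0.73 CPM in Oligodendrocyte, below the filter, and was not tested.

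Contactins are lipid-anchored Ig proteins, mostly of axons, and 4 of 6 were tested. Cntn1 (mm9 chromosome 15, 91881596 to 92172398, plus strand) measured 57.9, 59.2 and 52.8 CPM in NSC, 208, 235 and 220.2 in Astrocyte, 271, 206 and 270.3 in Neuron and 492 and 576 in Oligodendrocyte. Both Oligodendrocyte values lay above every other library, at 3.21 ± 0.11 (SE, adjusted p = 1.16e-11) against NSC and 1.11 ± 0.11 (SE, adjusted p = 1.84e-06) against Neuron. Astrocyte and Neuron overlapped, and were above NSC by 1.95 ± 0.10 (SE, adjusted p = 4.56e-10) and 2.11 ± 0.10 (SE, adjusted p = 2.17e-10). Cntn3 (mm9 chromosome 6, 102113300 to 102414661, minus strand) measured 1.28, 1.43 and 1.16 CPM in NSC, 3.97, 2.92 and 2.03 in Astrocyte, 6.39, 4.17 and 6.22 in Neuron and 21.1 and 24.9 in Oligodendrocyte. Its rise of 3.39 ± 0.19 (SE, adjusted p = 1.18e-09) against NSC and of 1.88 ± 0.19 (SE, adjusted p = 1.43e-06) against Neuron made it the member with the largest difference between those 2 day 4 media, which by the labels differ in T3 alone. Its Astrocyte and Neuron changes against NSC were 0.77 and 1.51, of which the first was 0.07 (adjusted p = 0.696) after quantile normalization.

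Cntn6 measured 3.21, 3.82 and 3.59 CPM in NSC, 1.74, 1.59 and 1.28 in Astrocyte, 1.32, 1.22 and 1.68 in Neuron and 4.50 and 4.1 in Oligodendrocyte. It was lower than NSC in Astrocyte (-0.84 ± 0.10, SE, adjusted p = 3.46e-06) and Neuron (-0.92 ± 0.10, SE, adjusted p = 1.46e-06), and in Oligodendrocyte it lay above Neuron by 1.14 ± 0.11 (SE, adjusted p = 1.33e-06). The Oligodendrocyte change against NSC, 0.22 ± 0.11 (SE, adjusted p = 0.0852), did not pass, and was -0.36 after quantile normalization. Cntn2 (TAG-1), the partner of Cntnap2 on axons, measured 0.02, 0.09 and 0.07 CPM in NSC, 1.89, 1.75 and 2.16 in Astrocyte, 3.17, 1.15 and 2.98 in Neuron and 1.79 and 2.60 in Oligodendrocyte. It passed in each comparison with NSC, at 1.47 ± 0.20 (SE, adjusted p = 1.05e-05), 1.64 ± 0.20 (SE, adjusted p = 3.58e-06) and 1.58 ± 0.22 (SE, adjusted p = 1.69e-05), and the day 4 groups overlapped. Cntn4 and Cntn5 stayed at or below 0.69 CPM.

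Of 7 contactin-associated genes, 3 were tested. Cntnap2 (Caspr2) measured 0.07, 0.10 and 0.02 CPM in NSC, 8.87, 9.63 and 10.4 in Astrocyte, 15.6, 13.7 and 17.1 in Neuron and 29.9 and 20.5 in Oligodendrocyte. The NSC values were a few reads, and the change was 3.32 ± 0.12 (SE, adjusted p = 1.25e-11), 3.95 ± 0.12 (SE, adjusted p = 2.52e-12) and 4.6 ± 0.14 (SE, adjusted p = 2.38e-12) in Astrocyte, Neuron and Oligodendrocyte. No groups overlapped, although the step from Neuron to Oligodendrocyte, 0.65 ± 0.14 (SE, adjusted p = 0.000983), was 0.39 (adjusted p = 0.0268) without Oligodendrocyte replicate 1. Cntnap1 (Caspr), which binds Cntn1, measured 1.45, 1.52 and 1.58 CPM in NSC, 5.60, 4.99 and 4.36 in Astrocyte, 2.13, 1.41 and 2.23 in Neuron and 3.66 and 3.35 in Oligodendrocyte. Its Astrocyte values were the highest, above NSC by 1.24 ± 0.12 (SE, adjusted p = 2.11e-07) and above Neuron by 1.04 ± 0.12 (SE, adjusted p = 4.09e-06), whereas Neuron and NSC overlapped (0.20 ± 0.12, SE, adjusted p = 0.116). Cntnap4 measured 2.25, 1.97 and 2.27 CPM in NSC, 2.23, 3.36 and 3.61 in Astrocyte, 4.30, 3.36 and 3.68 in Neuron and 1.39 and 0.77 in Oligodendrocyte. Its Oligodendrocyte values were the lowest of all libraries, at -1.21 ± 0.16 (SE, adjusted p = 1.82e-05) against Neuron and -0.62 ± 0.16 (SE, adjusted p = 0.00286) against NSC, the latter -0.40 (adjusted p = 0.0668) without Oligodendrocyte replicate 2. Neuron was above NSC by 0.59 ± 0.14 (SE, adjusted p = 0.00168), which was 0.16 (adjusted p = 0.297) after quantile normalization. Astrocyte was above NSC by 0.35 ± 0.14 (SE, adjusted p = 0.0372), which was -0.31 after quantile normalization and lost its call under 9 of the 20 other settings. Cntnap3, Cntnap5a, Cntnap5b and Cntnap5c were at or below 0.13 CPM.

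The neurexins Nrxn2 and Nrxn3 were higher than NSC in each day 4 culture, and the culture with the highest level differed between them. Nrxn2 (mm9 chromosome 19, 6418731 to 6544169, plus strand) measured 88.7, 87.5 and 87.7 CPM in NSC, 178, 207 and 199 in Astrocyte, 160.5, 134 and 156 in Neuron and 311 and 333 in Oligodendrocyte. It was highest in Oligodendrocyte, 1.86 ± 0.085 (SE, adjusted p = 1.5e-10) above NSC and 1.10 ± 0.085 (SE, adjusted p = 1.22e-07) above Neuron, and its order of NSC, Neuron, Astrocyte and Oligodendrocyte had no overlap. Nrxn3 (mm9 chromosome 12, 89961320 to 91573375, plus strand) measured 0.76, 1.24 and 0.84 CPM in NSC, 16.2, 17.8 and 19.1 in Astrocyte, 12.1, 9.48 and 11.6 in Neuron and 7.17 and 7.19 in Oligodendrocyte. It was highest in Astrocyte, 3.27 ± 0.11 (SE, adjusted p = 5e-12) above NSC, and lowest of the day 4 groups in Oligodendrocyte. Against Neuron, Astrocyte was at 0.64 ± 0.11 (SE, adjusted p = 0.000226) and Oligodendrocyte at -0.55 ± 0.12 (SE, adjusted p = 0.00151). In Oligodendrocyte against Neuron, Nrxn2 was thus higher and Nrxn3 lower.

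Neuroligins, the postsynaptic partners of neurexins, changed by at most 1.11 on the log2 scale against NSC. Nlgn1, found mostly at excitatory synapses, measured 23.0, 23.1 and 23.0 CPM in NSC, 39.8, 40.9 and 40.8 in Astrocyte, 51.1, 47.5 and 54.2 in Neuron and 47.1 and 50.2 in Oligodendrocyte. It was above NSC by 0.79 ± 0.061 (SE, adjusted p = 3.18e-08), 1.11 ± 0.061 (SE, adjusted p = 8.59e-10) and 1.05 ± 0.068 (SE, adjusted p = 6.26e-09), and Neuron and Oligodendrocyte overlapped. Nlgn2, found at inhibitory synapses, measured 87.5, 88.7 and 92.5 CPM in NSC, 106, 105 and 103 in Astrocyte, 162, 133 and 160.5 in Neuron and 120.0 and 117 in Oligodendrocyte. Its Neuron values were the highest (0.75 ± 0.070 against NSC, SE, adjusted p = 2.52e-07). Nlgn3, found at both kinds, measured 74.5, 72.0 and 74.0 CPM in NSC, 79.0, 78.8 and 77.8 in Astrocyte, 108, 88.6 and 112 in Neuron and 115 and 116 in Oligodendrocyte. Its rise passed in Neuron (0.47 ± 0.076, SE, adjusted p = 5.08e-05) and Oligodendrocyte (0.64 ± 0.084, SE, adjusted p = 8.96e-06), and its Astrocyte value of 0.10 ± 0.076 (SE, adjusted p = 0.254) did not pass. Astrocyte was below Neuron for each of the 3, by -0.53, -0.38 and -0.32 for Nlgn2, Nlgn3 and Nlgn1.

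The Lrrtm proteins, postsynaptic ligands of neurexins at excitatory synapses, had different patterns. Lrrtm2 measured 11.2, 11.3 and 9.97 CPM in NSC, 15.1, 12.6 and 12.2 in Astrocyte, 46.0, 36.5 and 44.6 in Neuron and 16.6 and 16.8 in Oligodendrocyte. The Neuron values were the highest, 1.87 ± 0.10 (SE, adjusted p = 6.07e-10) above NSC, and Astrocyte and Oligodendrocyte lay at -1.60 ± 0.10 (SE, adjusted p = 1.84e-08) and -1.29 ± 0.11 (SE, adjusted p = 3.49e-07) against Neuron. Lrrtm1 measured 1.89, 1.90 and 1.65 CPM in NSC, 3.73, 3.30 and 2.94 in Astrocyte, 4.53, 4.45 and 4.64 in Neuron and 6.93 and 8.05 in Oligodendrocyte. It was highest in Oligodendrocyte, by 1.59 ± 0.10 (SE, adjusted p = 4.95e-09) against NSC and 0.61 ± 0.10 (SE, adjusted p = 0.000136) against Neuron, and its Astrocyte change of 0.62 ± 0.091 (SE, adjusted p = 2.41e-05) was -0.06 after quantile normalization. Lrrtm4 measured 0.29, 0.28 and 0.56 CPM in NSC, 0.71, 0.54 and 0.56 in Astrocyte, 2.09, 2.44 and 1.79 in Neuron and 1.18 and 1.09 in Oligodendrocyte. It passed in Neuron (1.18 ± 0.11, SE, adjusted p = 1.58e-07) and Oligodendrocyte (0.64 ± 0.12, SE, adjusted p = 0.000211), and its Astrocyte value of 0.22 did not pass. After quantile normalization the Oligodendrocyte change was 0.00 (adjusted p = 0.974) and the Astrocyte change -0.40. Lrrtm3 ranged from 2.79 to 7.26 CPM, was lower than NSC in Astrocyte (-0.92) and Oligodendrocyte (-0.73), and overlapped with NSC in Neuron (-0.01).

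**Figure D4:**
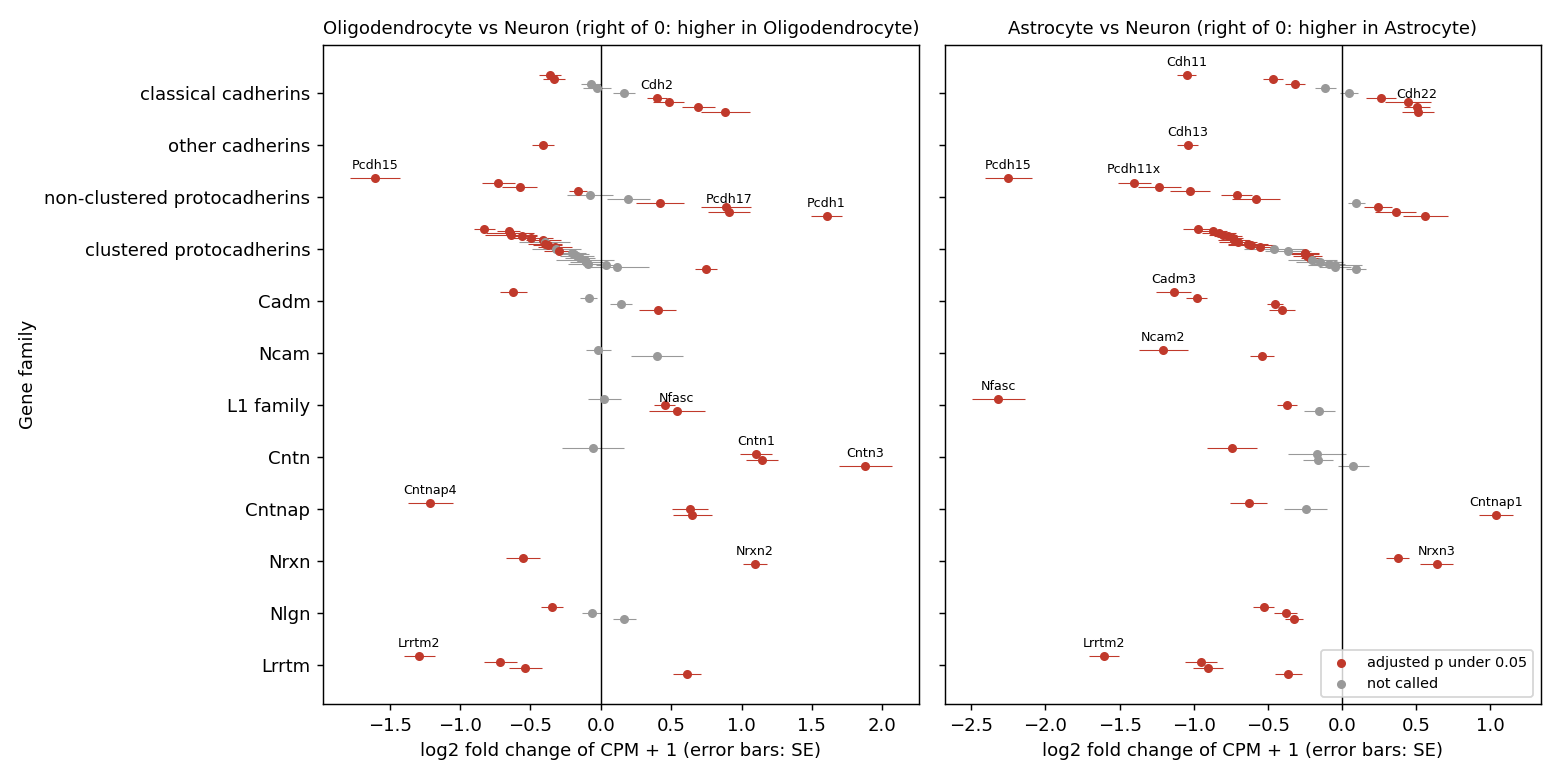
Log2 fold change of CPM + 1 (points, with the SE as bars) of 68 tested adhesion genes by family, for Oligodendrocyte against Neuron (left) and Astrocyte against Neuron (right); red points passed the test at adjusted p under 0.05 and grey ones did not. On the left Cntn3 (1.88) and Pcdh1 (1.60) lie farthest right and Pcdh15 (-1.60) farthest left, and on the right Nfasc (-2.32) and Pcdh15 (-2.25) lie farthest left and Cntnap1 (1.04) farthest right.

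At the edge of the filter, the lowest tested members by their second highest library were Lrrtm4 (2.09 CPM), Cntn2 (2.98), Cntnap4 (3.68) and Pcdhb15 (3.69), and the highest untested ones Cdh15 (0.92), L1cam (0.79), Pcdh20 (0.68) and Cdh23 (0.63).

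Genes that work with these adhesion molecules were read as 3 lists. Of 17 tested cadherin partners (catenins, Celsr, Fat, Dchs and Clstn genes), 11 were higher and 3 lower than NSC in Astrocyte, 10 and 3 in Neuron, and 11 and 4 in Oligodendrocyte, with medians of 0.53, 0.35 and 0.53. Of 32 tested synapse organisers (such as Flrt, Slitrk, receptor phosphatase, teneurin and Shank genes), 16 were higher and 11 lower in Astrocyte, 17 and 7 in Neuron, and 17 and 8 in Oligodendrocyte, with medians of 0.23, 0.27 and 0.43. Of 30 Ig partners and modifiers (such as IgLON proteins, ankyrins, sheddases and polysialyltransferases), 18 were higher and 9 lower in Astrocyte, 19 and 6 in Neuron, and 22 and 5 in Oligodendrocyte, with medians of 0.39, 0.55 and 0.99. The shares of all genes given above are the background for these counts as well.

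The 3 largest changes among the partners in each comparison included Ig proteins, a matrix ligand and a cadherin. Igsf11, a homophilic Ig protein, rose from a mean of 8.91 CPM in NSC to 225 CPM in Astrocyte (4.51 ± 0.065, SE, adjusted p = 3.57e-15) and 123 CPM in Neuron (3.64). In Oligodendrocyte it came to 146 CPM (3.89). St8sia2, which adds polysialic acid to Ncam1, rose to 23.3 CPM in Astrocyte from 1.18 CPM (3.48), and Celsr1, a cadherin of planar polarity, to 105 CPM from 14.7 CPM (2.76). In Neuron and Oligodendrocyte St8sia2 rose by 1.83 and 2.16, and Celsr1 by 2.12 and 2.56. Mag, a myelin Ig protein that is also in the list of mature oligodendrocyte markers, was at a mean of 0.013 CPM in NSC, 4.70 CPM in Astrocyte, 38.3 CPM in Neuron and 31.9 CPM in Oligodendrocyte. Tnr, the matrix protein tenascin-R, which binds Cntn1, rose from 18.1 CPM to 340 CPM in Neuron (3.99) and 463 CPM in Oligodendrocyte (4.61). The IgLON gene Opcml rose to 98.6 CPM in Oligodendrocyte from 5.6 CPM (3.91). Opcml also rose in Neuron (3.54) and Astrocyte (1.65), and Tnr in Astrocyte (2.45).

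Between the day 4 cultures, the lists held 7 higher and 4 lower cadherin partners, 8 and 17 synapse organisers, and 9 and 17 Ig partners in Astrocyte against Neuron. In Oligodendrocyte against Neuron the counts were 5 and 7, 10 and 9, and 15 and 7, and in Oligodendrocyte against Astrocyte 3 and 6, 14 and 5, and 18 and 6. Mag (-2.79), Opcml (-1.90) and the IgLON gene Lsamp (-1.71) were lower in Astrocyte than in Neuron. The myelin Ig gene Mog (9.60 against 0.527 CPM, 2.80), Flrt1, a ligand of latrophilins (32 against 5.2 CPM, 2.43), and Shank2, a postsynaptic scaffold (15.5 against 2.69 CPM, 2.20), were higher in Oligodendrocyte than in Neuron. Flrt1 (2.66), Mag (2.53) and Opcml (2.27) were also higher in Oligodendrocyte than in Astrocyte.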

How the data were processed

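The 11 poly(A)-selected stranded RNA libraries were sequenced on an Illumina HiSeq, per the labels' protocols. The authors deposited CPM values for 37991 genes, rounded to 2 decimals and named for mouse build mm9, per the file headers. Per the submitters' processing notes, bcl2fastq 1.8.4, TopHat2 2.0.8, HTSeq 0.6.1, edgeR 3.2.4, R 3.0.0 and HOMER were used with build NCBIM37. Not given in the sources used here are their settings, the annotation release and any use of the strand in counting, so reads of overlapping antisense genes and of near-identical protocadherins may not be told apart.

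Values under the rounding could not be returned to whole reads (24.2% to 60.8% of low values lay within 0.1 read of a whole number), so no count model was used. An estimated 50.7 to 66.2 M (mega) reads lay behind each library. Genes that reached 1 CPM in 2 or more libraries were put on a log2(CPM + 1) scale. The limma package (3.58.1, R 4.3.3) was fitted to all 11 libraries with no covariate, using lmFit and contrasts.fit, then eBayes with its trend option. Tests were two-sided, Benjamini-Hochberg adjustment ran over the 13342 genes within each of the 6 comparisons, and calls were made at an adjusted p under 0.05. The script was tested on simulated data.

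The members, the marker and partner lists and the tests were chosen with earlier results of these data known. Values in every library are given for the 3 members with the largest range of group means in each family, the 3 largest called rises and falls without overlap in each comparison, and Cdh1, Cdh2, Ncam1, Nrxn2, Nrxn3, Nlgn1 to Nlgn3, Nfasc, Cntn1, Cntnap1, Cntnap2 and L1cam. Of the partner lists, the 3 largest called changes in each comparison are named. The genes named beyond this rule were chosen after their values were seen. Map2, Sox1 and Dchs2 had no matching row. The results of 1 tested member are not reported here, and it is left out of the plots but kept in the counts of members. Alternatives were other pseudocounts, filters, scalings and variance models, fits of the 2 groups alone, a replicate block, and each library left out in turn.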

Additional observations from a re-analysis of the deposited data

Results flagged for a closer look

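For 4 genes, the change against NSC passed the test upwards in one medium and downwards in another, and the direct comparison of the media (limma, adjusted p) also passed. The comparisons with NSC share the NSC libraries. The direct difference equals the difference between both changes against NSC, and its p-value draws on the spread of all 11 libraries. Its passing is therefore not independent of how these genes were picked. Cdh6, a type II cadherin, differed by 0.89 between Oligodendrocyte and Neuron (adjusted p = 0.000509), with changes of 0.41 and -0.47 against NSC. The call of the first was lost under 10 of the 20 other settings (0.24 after median-of-ratios scaling, 0.01 after quantile normalization), and that of the second without NSC replicate 2 (-0.40, adjusted p = 0.0501). Its lowest value, 2.91 CPM, was that of Neuron replicate 2. Cntnap4 differed by -1.21 between Oligodendrocyte and Neuron (adjusted p = 1.82e-05) and by -0.97 between Oligodendrocyte and Astrocyte (adjusted p = 0.000217), with changes against NSC of -0.62 in Oligodendrocyte, 0.59 in Neuron and 0.35 in Astrocyte. Its Astrocyte change was -0.31 after quantile normalization and lost its call under 9 of the 20 other settings, its Neuron change was 0.16 (adjusted p = 0.297) after quantile normalization, and its Oligodendrocyte change was -0.40 (adjusted p = 0.0668) without Oligodendrocyte replicate 2. Pcdh11x differed by -1.40 between Astrocyte and Neuron (adjusted p = 1.67e-07) and by 0.83 between Oligodendrocyte and Astrocyte (adjusted p = 9.69e-05), with changes against NSC of -0.47 in Astrocyte, 0.93 in Neuron and 0.36 in Oligodendrocyte. The Oligodendrocyte call was lost under 4 of the 20 other settings, at 0.16 (adjusted p = 0.227) after median-of-ratios scaling. Pcdh7 differed by 1.47 between Oligodendrocyte and Astrocyte (adjusted p = 1.46e-05), with changes of 0.99 and -0.48 against NSC, the latter -0.39 (adjusted p = 0.0558) without Astrocyte replicate 3.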

How the results depend on the processing

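The 6 counts of members called stayed within 1.5 times their reported value under each of the 20 alternatives. In the 3 comparisons with NSC, 65, 64 and 67 of 69 members were called. There the upper limit lay above all 94 members, so the rule could not be broken upwards and says little. Leaving out each library in turn gave 61 to 67 calls in Astrocyte against NSC, 63 to 68 in Neuron against NSC, 63 to 67 in Oligodendrocyte against NSC, 47 to 57 in Astrocyte against Neuron, 39 to 51 in Oligodendrocyte against Neuron and 36 to 50 in Oligodendrocyte against Astrocyte. Over the alternatives as a whole the ranges were 57 to 71, 63 to 72, 60 to 73, 45 to 57, 39 to 55 and 36 to 50, the upper ends including members tested without a filter. Of the values of single reported members under an alternative, 7847 kept their side of the threshold, 225 lost the call and 83 gained it. A further 5 changed sign and were called in the main fit, the alternative or both. Sign changes of values called in neither fit are counted among the 7847. Quantile normalization gave those 5: Cntnap4 (-0.31), Lrrtm1 (-0.06) and Lrrtm4 (-0.40) in Astrocyte against NSC, Cntnap1 in Neuron against NSC (-0.27, from 0.20) and Cntn6 in Oligodendrocyte against NSC (-0.36). The cause was not tested. Same-numbered libraries of different groups did not deviate together in every case (r from -0.51 to 0.41 over 15 pairs, 6 of them over 0.1). Differently numbered libraries had r from -0.54 to 0.54 over 30 pairs, 7 of them over 0.1. The number was not taken as a pairing, and with a replicate block the counts were 64, 64, 66, 52, 44 and 45 in the order above. Median-of-ratios scaling moved the median of all genes from 0.15 to 0.01, 0.19 to 0.01 and 0.15 to 0.02 in Astrocyte against NSC, Oligodendrocyte against NSC and Oligodendrocyte against Neuron. With 2 or 3 libraries a group and values rounded to 2 decimals, differences of members near 1 CPM are the least precise.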
